A study of Sus scrofa with 6 samples.

Results

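The myogenic basic helix-loop-helix (bHLH) genes and their dimer partners were followed in porcine satellite cells (PSCs), stem cells of skeletal muscle, while they differentiated into myotubes in culture. The group was defined by name and held 9 genes, namely the myogenic regulatory factors (MRFs) MYOD1, MYF5 and MYF6, the E proteins TCF3, TCF4 and TCF12, and the inhibitors ID1, ID2 and ID3. Of these, 7 were matched by symbol to an Ensembl row of the expression table, which held 28266 rows in all. ID1 and ID3 were not analysed here, and neither was MYOG, the fourth myogenic regulatory factor, which is no member of the group. The question asked of each gene was whether its level differed between 24 h of differentiation and a later time.

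The 6 libraries came from 2 groups of 3, each numbered as replicates 4, 5 and 6. All were made from satellite cells of limb muscle of Yorkshire male piglets 3 days old, plated in turn to remove fibroblasts and differentiated in a medium with horse serum. The first group was harvested at 24 h. The second is given as 48 h in the sample labels and as 36 h in the series title and the study's methods, and it is called the later group here. The labels name no siRNA. Their titles begin with the letter that the study uses for its groups with negative control (NC) siRNA, and libraries with H19 siRNA were not analysed here. Nothing in the labels says whether the 3 replicates of a group came from separate animals or cultures, so the p-values measure the spread between these libraries, which may be technical.

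The MRFs are transcription factors that switch on muscle genes. Each pairs with an E protein through its helix-loop-helix domain, and the pair binds E-box sequences in muscle enhancers. ID proteins share the dimerization domain but lack the basic region that contacts DNA, so a dimer with an ID protein cannot bind, and E proteins held by ID proteins are not free to pair with an MRF. In muscle lineages MYOD1 and MYF5 are known as determination factors, whereas MYF6 (MRF4) is known for its expression in differentiating and mature fibres.

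Values are FPKM, fragment numbers divided by gene length and library total. Levels of different genes can thus be compared as far as the gene lengths used in the division are right, which was not tested. The fragments behind each value were recovered from the FPKM steps, and the table held 16250222 to 16774534 fragments per library at 24 h and 17873849 to 21723087 at the later time. A single fragment on a gene of 1 kb added 0.0457 to 0.061 FPKM. Changes are given as later minus 24 h of log2(FPKM + 1), a scale that understates the change of low genes. They were tested with limma over the 14060 genes whose FPKM averaged 1 or more and adjusted by Benjamini-Hochberg, and a gene was called at an adjusted p under 0.05. Much of the transcriptome moved between the groups. Of all genes tested 50.9% were called, 16.5% as higher and 34.4% as lower at the later time, and in 63.6% the 3 values of one group did not overlap the 3 of the other. The median change of all genes was -0.16. The share of calls that were higher was 32.5% with the deposited FPKM, 51.8% after median-ratio scaling and 46.2% after quantile normalization, and the median of all genes then lay at -0.01 and -0.04.

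Most muscle cell markers rose. Their summed FPKM was 9891 to 14640 at 24 h and 21140 to 23700 at the later time. ACTC1 alone held 7182 to 9539 and then 11110 to 12320 of these sums. Of 9 tested, 8 were called higher, among them TNNC2, ACTA1 and CALCR, the last from a mean of 1.57. PAX3 was too low to be tested and went the other way. It was at 0.394, 0.440 and 0.472 at 24 h and at 0.160, 0.177 and 0.185 at the later time. The protocol text of the labels names endometrium, and of 10 epithelial markers with a row 3 were at 0 throughout (KRT8, CLDN4 and PGR) and 7, these included, stayed under 1 FPKM everywhere. The other 3 were tested. CDH1 rose from 0.318 to 3.63, while HOXA10, at 13.2 to 15.8 FPKM in all libraries, and SPP1, at 4.94 to 23.2, were not called. Fibroblast markers summed to 1109 to 1280 and then 908 to 1101. S100A4, DCN and LUM fell, while PDGFRB, COL3A1 and POSTN rose, and PDGFRA was at most 0.68. KDR (endothelium), PTPRC and MS4A1 (immune cells) were listed at 0 in all libraries. Other markers of these cell types were above 0 in every library. Among them PECAM1 (endothelium) was at 1.015 to 1.674, CD14 (immune cells) at 1.003 to 3.289 and CD68 (immune cells) at 0.634 to 2.397. Endothelial markers summed to at most 2.85, immune markers to at most 5.93 and adipocyte markers to at most 1.2 FPKM in any library, and of these CD14 was called, as lower. Smooth muscle and pericyte markers summed to 1181 to 1602 and then 1190 to 1361, with ABCC9 and NOTCH3 called higher and TAGLN and CSPG4 lower. ACTA2 alone held 853 to 1091 and then 925 to 1037 of these sums and was not called, while MYH11 was at most 0.0254. Cell cycle genes summed to 70.9 to 183 at 24 h and 25.2 to 31.9 later, and 9 of 11 fell, led by CCNB1, TOP2A and CDK1. In bulk RNA, fewer cells of a type and less RNA per cell cannot be told apart, and the part of these markers in the results below was not tested. HDAC1 and CDKN1A were also listed near 0, so a listing near 0 was not taken as absence of expression.

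The study measured MYOD mRNA by PCR with the primer pair below, shown because it reads the same gene as the MYOD1 row of the sequencing table. Both are written 5′ to 3′, and their positions in the gene were not located here.
MYOD forward: ggctgcccaaggtggaaatc
MYOD reverse: tgcgtctgagtcaccgctgtag
The forward primer has 20 bases with a GC content of 60.0%, and the reverse primer has 22 bases with 59.1%.

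Of the 7 members tested, 1 rose, 1 fell and 5 were not called. MYF6 rose, TCF12 fell, and MYOD1, MYF5, TCF3, TCF4 and ID2 did not pass the test. The share called was 28.6%, beside 50.9% of all genes tested. The groups did not overlap in 2 of the 7, beside 63.6% of all genes. The median change of the members was -0.29 and that of all genes -0.16, with 5 changes below 0 and 2 above. MYF6 and TCF12 kept their call and direction in each of the 16 alternative analyses that were run.

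**Figure D1:**
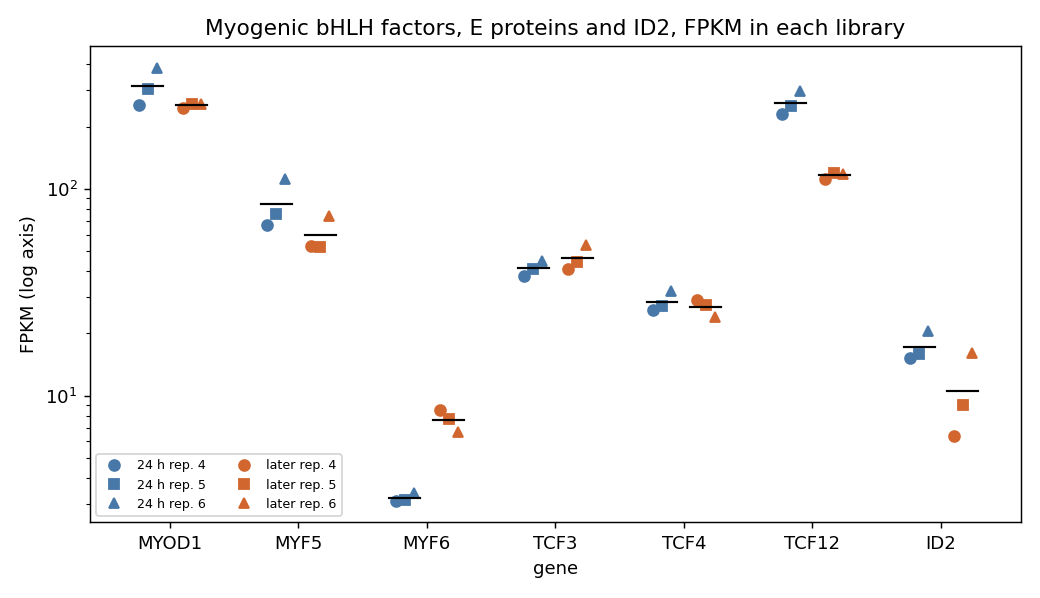
FPKM of the 7 genes (x axis) on a log axis (y axis), with 1 point per library (blue 24 h, orange later; circle, square and triangle for replicates 4, 5 and 6) and a bar at the group mean. MYF6 lies at 3.10 to 3.37 and then 6.66 to 8.51, TCF12 at 231 to 298 and then 112 to 119, and the 2 groups overlap in the other 5 genes.

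MYOD1, a factor that can convert other cells to muscle, was the highest of the group by mean in both groups of libraries. It lies on chromosome 2 at 41422522-41424236 (Sscrofa11.1, RefSeq; ENSSSCG00000013375). Its FPKM was 255, 306 and 386 at 24 h and 246, 258 and 258 at the later time. The later libraries lay close together at the lower end of the 24 h range, and the groups overlapped because 24 h replicate 4 stood below 2 later libraries. The mean was 316 ± 66.3 and then 254 ± 7.12 (SD, n = 3 each). The log2 change was -0.29 with a standard error of 0.14, and it was not called (limma adjusted p = 0.133). Single libraries moved this value both ways. Without 24 h replicate 4 the change was -0.43 and was called (limma adjusted p = 0.0223), and without 24 h replicate 6 it was -0.14 (limma adjusted p = 0.229). Among the 14060 genes MYOD1 ranked 211th to 337th from the top at 24 h and 339th to 347th at the later time. With 31755 and 31243 fragments summed over the 2 groups, counting error was a small part of this spread.

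MYF5, the determination factor that is expressed before MYOD1 in the mouse embryo, was next among the MRFs. Its FPKM was 66.9, 75.4 and 112 at 24 h and 52.9, 52.6 and 74.2 at the later time. Replicate 6 was the highest library in both groups, and later replicate 6 lay between 24 h replicates 4 and 5. The mean was 84.7 ± 23.9 and then 59.9 ± 12.4 (SD, n = 3 each). The log2 change of -0.48 (standard error 0.22) was not called (limma adjusted p = 0.106). Without 24 h replicate 6 the change was -0.26 (limma adjusted p = 0.211). Without replicate 6 of either group, an analysis added after the values were seen, it was -0.42 and was called (limma adjusted p = 0.00504). With the replicate number as a block it was also called (-0.48, limma adjusted p = 0.00678). MYF5 was read from 4001 fragments at 24 h and 3413 at the later time.

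MYF6 rose from the lowest level in the group. Its FPKM was 3.10, 3.11 and 3.37 at 24 h and 8.51, 7.67 and 6.66 at the later time. Each later library lay above each 24 h library, and the lowest later value was that of replicate 6. The mean rose from 3.20 ± 0.151 to 7.61 ± 0.925 (SD, n = 3 each), which is 2.38-fold. The log2 change was 1.03 with a standard error of 0.10 (limma adjusted p = 0.000969), and over the alternatives it ranged from 0.96 to 1.24 with adjusted p between 0.000556 and 0.00937. Relative to the median of all genes the change was 1.19 with the deposited FPKM, 1.18 after median-ratio scaling and 1.24 after quantile normalization.

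Few fragments stood behind MYF6. They numbered 35, 34 and 37 at 24 h and 118, 112 and 80 at the later time, on a recovered length of 667 bases. The exact 95% Poisson intervals of its FPKM were 2.16 to 4.32, 2.16 to 4.35 and 2.37 to 4.65 in the 24 h libraries. They were 7.04 to 10.2, 6.31 to 9.23 and 5.28 to 8.29 in the later libraries, so no 24 h interval reached a later one. These intervals cover counting error only. MYF6 ranked 10963rd to 11163rd of the genes tested at 24 h and 7301st to 8170th at the later time.

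MYF5 and MYF6 are neighbours in the genome. MYF5 (ENSSSCG00000000937) lies on chromosome 5 at 100753440-100755558 and MYF6 (ENSSSCG00000026533) at 100762918-100764771 (Sscrofa11.1, RefSeq), with 7359 bases between them. Both lie within the span of another RefSeq gene, LOC110260827, at 100692813-100832403. The rows of the expression table carry Ensembl identifiers, and their gene models can differ from those of RefSeq. For MYOD1 the recovered length was 2025 bases, more than its RefSeq span of 1715. Whether the annotation used for counting held LOC110260827 is not known. Whether the counting used strand is not given in the sources used here, so reads of overlapping genes could not be assigned with certainty. MYF6 was called higher and MYF5 was not called, with a log2 change below 0. The difference between the neighbours was not tested.

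Within the MRF sum (MYOD1, MYF5 and MYF6, without MYOG), the share of MYF6 was small in all libraries. MYF6 made up 0.955%, 0.809% and 0.672% of the summed FPKM of the 3 MRFs at 24 h and 2.77%, 2.41% and 1.96% at the later time. MYOD1 made up 77.0% to 79.6% and then 76.2% to 81.1%, and MYF5 19.6% to 22.3% and then 16.5% to 21.9%. The ratio of MYOD1 to MYF6 was 82.1, 98.3 and 115 at 24 h and 28.9, 33.7 and 38.8 at the later time. These 3 later ratios all lay below the 24 h ratios, and the log2 ratio of MYF6 to MYOD1 was higher by 1.54 (two-sided exact permutation p = 0.1, the smallest that 3 against 3 libraries can give). The MRF sum itself was 325, 384 and 502 and then 307, 319 and 339, and its groups overlapped.

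TCF12 (HEB), an E protein that pairs with MYOD1 on muscle enhancers, fell. Its FPKM was 231, 253 and 298 at 24 h and 112, 119 and 118 at the later time. Each later library lay below each 24 h library, and the later libraries differed little among themselves. The mean was 260.4 ± 34.1 and then 116 ± 3.88 (SD, n = 3 each), so the later mean was 0.446 of the earlier one. The log2 change was -1.15 with a standard error of 0.10 (limma adjusted p = 0.000752), and over the alternatives it ranged from -1.23 to -0.98 with adjusted p between 0.000358 and 0.00814. Relative to the median of all genes it was -0.99, and -0.97 and -1.16 after median-ratio scaling and quantile normalization. TCF12 was read from 34328 and 18706 fragments and moved from rank 280 to 362 down to rank 803 to 841. The gene (ENSSSCG00000004600) lies on chromosome 1 at 114682299-115056363.

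TCF3, the gene of the E2A proteins E12 and E47, did not pass the test. Its FPKM was 38.0, 41.0 and 44.98 at 24 h and 41.1, 44.3 and 53.6 at the later time. The groups overlapped, with later replicates 4 and 5 inside the 24 h range. The mean was 41.4 ± 3.49 and then 46.3 ± 6.53 (SD, n = 3 each), and the log2 change of 0.16 (standard error 0.11) had a limma adjusted p of 0.284. After median-ratio scaling, which moves all genes up, it was 0.33 and was called (limma adjusted p = 0.0476). Without later replicate 6 it was 0.05 (limma adjusted p = 0.701). Relative to the median of all genes the change was 0.31 with the deposited FPKM, 0.33 after median-ratio scaling and 0.21 after quantile normalization. TCF3 (ENSSSCG00000013437) lies on chromosome 2 at 76859079-76906275 and was read from 5008 and 6799 fragments.

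TCF4 (E2-2), the E protein that is best known from neurons and plasmacytoid dendritic cells, stayed between 24.1 and 32.0 FPKM in all libraries. Its FPKM was 25.8, 27.0 and 32.0 at 24 h and 28.9, 27.3 and 24.1 at the later time. Replicate 6 was the highest library at 24 h and the lowest at the later time. The mean was 28.3 ± 3.28 and then 26.8 ± 2.45 (SD, n = 3 each). The log2 change of -0.08 (standard error 0.11) had a limma adjusted p of 0.574, and it was 0.01 without 24 h replicate 6. The 2 scalings, which move the median of all genes up, took it to 0.09 and 0.01. Relative to that median it was 0.08 with the deposited FPKM, 0.10 after median-ratio scaling and 0.05 after quantile normalization. It was called in no alternative. TCF4 (ENSSSCG00000004535) lies on chromosome 1 at 104718809-105079919 and was read from 2525 and 2932 fragments. TCF3 and TCF4 were matched as official symbols only, since both names were also used for the Wnt factors TCF7L1 and TCF7L2.

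The E protein pool was smaller and differently composed at the later time. The summed FPKM of the 3 E proteins was 295, 321 and 375 at 24 h and 182, 190.4 and 196 at the later time, without overlap. TCF12 supplied 78.3%, 78.8% and 79.4% of that sum at 24 h and 61.5%, 62.4% and 60.3% at the later time. The share of TCF3 was 12.9%, 12.8% and 12.01% and then 22.6%, 23.3% and 27.4%, and that of TCF4 was 8.77%, 8.42% and 8.55% and then 15.9%, 14.4% and 12.3%. TCF12 was thus the most abundant E protein in each of the 6 libraries, at 6.07, 6.17 and 6.62 times the FPKM of TCF3 and later at 2.72, 2.68 and 2.20 times. Each of these shares, as well as the sum, separated the groups (two-sided exact permutation p = 0.1 for each, the smallest possible). In all, 17 sums, shares and ratios were computed, of which 11 did not overlap, and the smallest p adjusted by Benjamini-Hochberg over them was 0.155. Several of them are reciprocal or share a gene, and they are given as descriptions of these libraries.

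**Figure D2:**
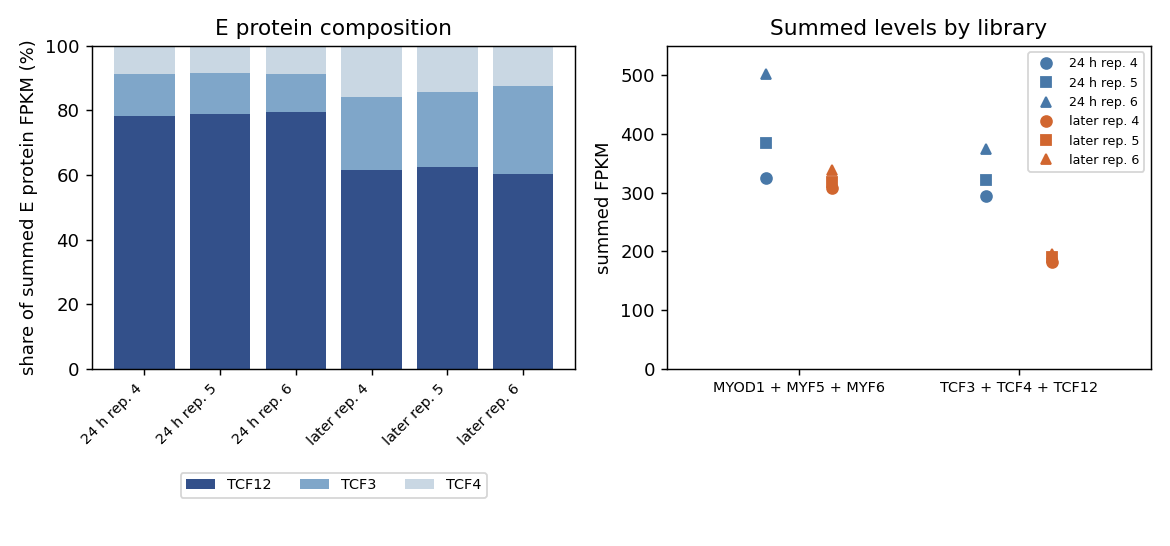
Left, the share of TCF12, TCF3 and TCF4 in their summed FPKM (y axis, %) as stacked bars for each library (x axis). Right, the summed FPKM of the MRFs (MYOD1, MYF5 and MYF6, without MYOG) and of the E proteins with 1 point per library. TCF12 takes 78.3% to 79.4% at 24 h and 60.3% to 62.4% later, and the E protein sums separate (295 to 375 against 182 to 196) while the MRF sums overlap.

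The ratio of MRF to E protein FPKM was 1.10, 1.197 and 1.34 at 24 h and 1.69, 1.67 and 1.73 at the later time. Its MRF sum is that of MYOD1, MYF5 and MYF6. Because MYOG is not part of the ratio, it is no measure of all MRF mRNA. All later ratios lay above all earlier ones (two-sided exact permutation p = 0.1). TCF12 stood at 0.905, 0.827 and 0.77 of the FPKM of MYOD1 at 24 h and at 0.454, 0.460 and 0.457 at the later time. These are ratios of mRNA per length, and proteins and dimers were not measured.

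ID2 was the 1 inhibitor of the group that could be read. The gene (ENSSSCG00000008645) lies on chromosome 3 at 127500759-127503207. Its FPKM was 15.2, 15.8 and 20.6 at 24 h and 6.39, 8.95 and 16.1 at the later time. Later replicates 4 and 5 lay below all 24 h libraries, whereas later replicate 6 lay between 24 h replicates 5 and 6. The mean was 17.2 ± 2.95 and then 10.5 ± 5.04 (SD, n = 3 each), and the log2 change of -0.74 (standard error 0.30) was not called (limma adjusted p = 0.0746). Without later replicate 4 the change was -0.47 (limma adjusted p = 0.189), and without later replicate 6 it was -1.07 and was called (limma adjusted p = 0.0096). It was also called without replicate 6 of either group (-0.94, limma adjusted p = 0.00325) and with limma voom on the recovered fragments (-0.83, limma adjusted p = 0.0494). With the replicate number as a block it was called as well (-0.74, limma adjusted p = 0.0167). ID2 was read from 1216 and 881 fragments.

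Later replicate 6 stood apart in other genes too. Of 14 immediate-early genes, the fast response genes to serum and stress, chosen after the values were seen, 12 had a row. Later replicate 6 was the highest library of its group in all 12, beside 39.1% of all genes tested. It stood at a median of 6.002 times the mean of later replicates 4 and 5 (range 2.54 to 27.3). FOS was 4.25, 4.64 and 1.81 at 24 h and 7.47, 9.27 and 228 at the later time. EGR1 was 16.6, 14.6 and 13.9 and then 47.8, 64.6 and 569. ID2 stood at 2.10 times the mean of the other two in that library. The part of the immediate-early genes in the ID2 values was not tested.

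**Figure D3:**
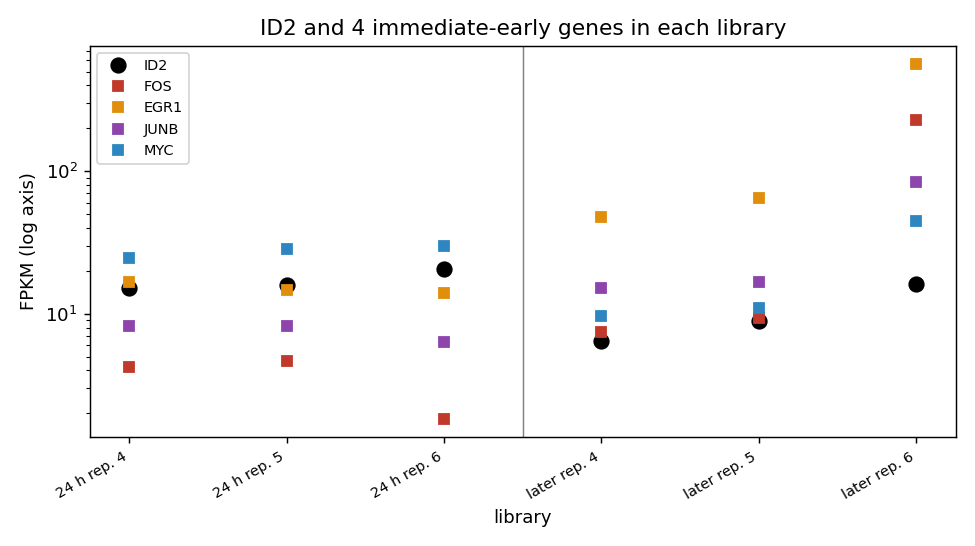
FPKM on a log axis (y axis) of ID2 (black circles) and of FOS, EGR1, JUNB and MYC (squares) in each library (x axis; the vertical line divides the 24 h from the later libraries). In later replicate 6 FOS is at 228 and EGR1 at 569, and ID2 at 16.1 lies above its values of 6.39 and 8.95 in the other later libraries.

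The ratio of ID2 to the summed E proteins did not separate the groups. It was 0.0515, 0.0493 and 0.0549 at 24 h and 0.0351, 0.047 and 0.0823 at the later time (log2 difference -0.01, two-sided exact permutation p = 1.0). The later values spanned the 24 h values on both sides, and the highest was that of replicate 6. The log2 difference rested on single libraries, at -0.35 without later replicate 6 and 0.26 without later replicate 4. It rested on TCF12 as well, at -0.88 when TCF12 was taken out of the E protein sum. Against TCF3 alone, ID2 stood at 0.399, 0.386 and 0.457 and later at 0.156, 0.202 and 0.300, without overlap (two-sided exact permutation p = 0.1). Because ID1 and ID3 are not part of the ratio, it is no measure of all ID mRNA.

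The 24 h replicate 6 also stood apart. It was the highest of its group in 7 of 7 members, beside 50.5% of all genes tested. It was the highest in 11 of 11 cell cycle genes and the lowest in 26 of 30 MRF target genes, the latter beside 34.1% of all genes. Later replicate 6 was likewise the highest of its group in 10 of 11 cell cycle genes and the lowest in 23 of 30 target genes, although the highest in 4 of 7 members. Of all genes tested it was the highest in 39.1% and the lowest in 36.2%. The cell cycle sum of 24 h replicate 6 was 183, against 70.9 and 95.3 in 24 h replicates 4 and 5. That of later replicate 6 was 31.9, against 28.2 and 25.2 in later replicates 4 and 5. Without 24 h replicate 6, MYF6 and TCF12 were still called. The part of the state of this 24 h library in the level of the members was not tested.

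**Figure D4:**
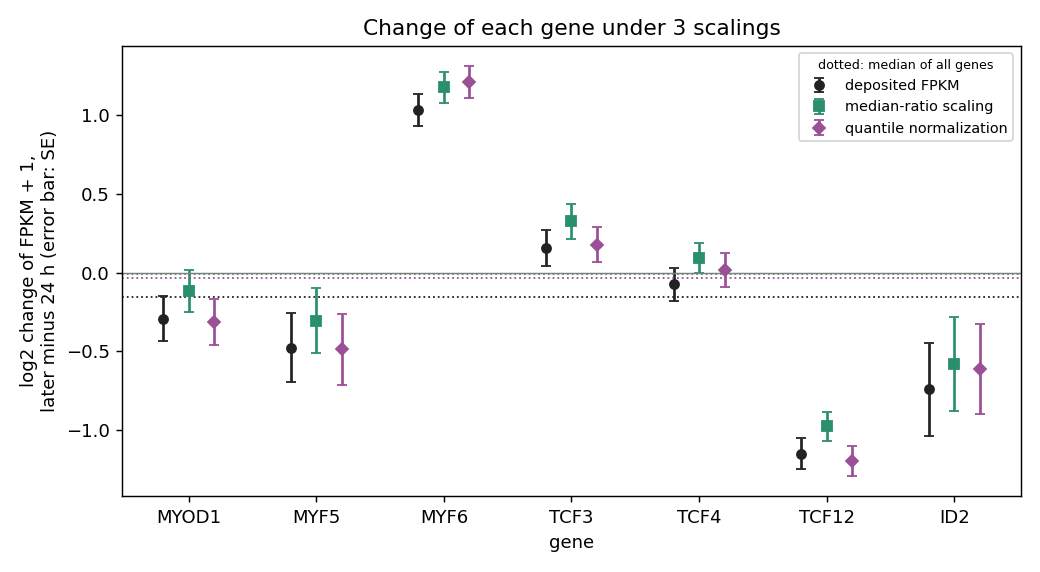
log2 change of FPKM + 1, later minus 24 h (y axis), of each gene (x axis) with its standard error, for the deposited FPKM, median-ratio scaling and quantile normalization; dotted lines mark the median of all genes under each (-0.16, -0.01 and -0.04). MYF6 is near 1 above and TCF12 near 1 below under each scaling, while TCF4, between -0.08 and 0.09, changes sign and stays above the median of all genes under each.

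The order of levels was almost the same in both groups. At 24 h it ran MYOD1, TCF12, MYF5, TCF3, TCF4, ID2 and MYF6. The ranges of MYOD1 (255 to 386) and TCF12 (231 to 298) overlapped there, although MYOD1 was the higher of the pair within each library, and no other neighbours overlapped. At the later time the order by mean was the same, MYOD1 and TCF12 were apart (246 to 258 and 112 to 119), MYF5 (52.6 to 74.2) overlapped TCF3 (41.1 to 53.6), and ID2 (6.39 to 16.1) overlapped MYF6 (6.66 to 8.51).

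The members' profiles differed among themselves. Likeness was measured as the root mean square difference of log2(FPKM + 1), centred per gene, over the 6 libraries. The closest pair was MYOD1 and TCF4 at 0.168, followed by MYOD1 and MYF5 at 0.189. The farthest was MYF6 and TCF12 at 1.10. Over all genes with a symbol, KLHL42, PHC1 and SEL1L3 were nearest to MYOD1 (0.031 to 0.034), PIDD1, HAP1 and FOXP4 to MYF5 (0.057 to 0.065), and NCKIPSD, CALHM4 and HOXB2 to MYF6 (0.044 to 0.071). GAS8, PLCG1 and SYNE3 were nearest to TCF4 (0.031 to 0.038), and CLIP4, TRAM1 and CAV1 to TCF12 (0.043 to 0.049). ID2 had no profile as close, with CDC25B, KIF12 and FADS3 at 0.144 to 0.182.

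The genes that MRFs are known to switch on mostly rose. Of 55 direct target genes listed, 34 had a row and 30 were tested, and 23 were called higher, 2 lower and 5 neither, with a median change of 1.29 beside -0.16 for all genes. The shares were 76.7% higher and 6.67% lower, beside 16.5% and 34.4% of all genes tested. DES, CDH15, ACTA1, ACTC1, MYMK and TNNC2, all called higher, are on the muscle cell marker list too, so the 2 lists are not independent. The largest rises were those of MYBPH, a myosin-binding protein, from 65.2 to 512 (log2 change 3.17), MYL4, an embryonic myosin light chain, from 21.5 to 146 (2.98), and MYH3, the embryonic myosin heavy chain, from 448 to 2300.0 (2.61). FGFR4, a growth factor receptor of myoblasts, fell from 274 to 159 (-0.76, limma adjusted p = 0.00601), and RASSF4 fell from 45.7 to 35.8 (-0.34, limma adjusted p = 0.00541). In the same libraries the mean log2 level of the tested targets was 7.47, 7.31 and 6.58 and then 8.50, 8.42 and 8.19, lowest in replicate 6 of each group.

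Co-activators of the MRFs did not move one way. Of 36 listed, 29 were tested, and 4 were called higher, 11 lower and 14 neither, with a median change of -0.01. The shares were 13.8% higher and 37.9% lower, near the 16.5% and 34.4% of all genes tested. MEF2C, the MADS-box partner of the MRFs that is also on the target list, rose from 346 to 871 (log2 change 1.38, limma adjusted p = 0.00464). BRD3, a bromodomain protein, rose by 0.38 and RCOR2, of the CoREST complexes, by 0.27. SMARCB1 and SMARCC1, subunits of the SWI/SNF chromatin remodeller, fell by 0.65 and by 0.55, and KDM1A, a histone demethylase, fell by 0.58. After median-ratio scaling 11 were called higher and 6 lower, and after quantile normalization 7 each, so the balance of directions in this list depended on the scaling. Without later replicate 6 it was 3 higher and 6 lower.

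Repressors of MRFs and E proteins held changes both ways. Of 29 listed, 17 were tested, and 3 were called higher, 2 lower and 12 neither, with a median change of -0.06. The shares were 17.65% higher and 11.76% lower, beside 16.5% and 34.4% of all genes tested. CBFA2T3, an ETO family corepressor that binds E proteins, rose from 12.5 to 32.95 (log2 change 1.36, limma adjusted p = 0.00282). MSC (musculin, MyoR), a bHLH factor that competes with MYOD1, rose from 28.3 to 60.6 (1.10, limma adjusted p = 0.00384), and MDFIC, an I-mfa domain protein, rose by 0.84 from an FPKM of 1.31. HEY1, a Notch target, fell from 28.1 to 14.8 (-0.88, limma adjusted p = 0.000692), and EZH2, the histone H3 lysine 27 methyltransferase, fell by 0.55. The number called lower was 4 without 24 h replicate 6 and 5 without replicate 6 of either group.

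The other bHLH factors moved about evenly. Of 67 listed, 42 had a row and 33 were tested, and 8 were called higher and 8 lower, with a median change of -0.05. The share was 24.2% each way, beside 16.5% higher and 34.4% lower of all genes tested. Beside MSC and HEY1, which are on both lists, MXD1, a MAX partner that opposes MYC, rose from 5.72 to 12.1 (log2 change 0.96), and HES6, a HES factor that promotes muscle differentiation, rose from 166 to 299 (0.87). ATOH8 fell from 5.60 to 3.002 (-0.70) and MLXIP, a glucose-responsive partner of MLX, fell from 11.7 to 7.13 (-0.64). ID4, the fourth ID gene and no member of the group, was singled out after its values were seen, as the other ID gene with a row. It rose from 1.40, 1.43 and 1.18 to 2.35, 2.28 and 3.43 FPKM, each later library above each 24 h library (log2 change 0.65, limma adjusted p = 0.0116). It was read from 94, 93 and 77 and then 194, 198 and 245 fragments. After median-ratio scaling 12 of the list were called higher and 5 lower, after quantile normalization 10 and 5, and without 24 h replicate 6 the count was 8 higher and 12 lower.

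Signalling from bone morphogenetic proteins (BMPs) and TGF-beta is a known input to ID genes. Of 40 such genes 26 were tested, and 4 were called higher, 10 lower and 12 neither, with a median change of -0.11. The shares were 15.4% higher and 38.5% lower, near the 16.5% and 34.4% of all genes tested. CHRD (chordin), which holds BMPs outside the cell, rose from 2.23 to 7.01 (log2 change 1.31, limma adjusted p = 0.000721). ACVR1, a BMP receptor, rose by 0.52 and SMAD6, an inhibitory SMAD, by 0.35. FST (follistatin), which binds activins and BMPs, fell from 31.4 to 13.2 (-1.15, limma adjusted p = 0.0045), SMAD3 from 53.1 to 25.3 (-1.03, limma adjusted p = 0.00162), and SMAD9, a receptor SMAD of the BMP branch, by 0.72. Antagonists and signal carriers were thus found on both sides. Without later replicate 6 the count was 1 higher and 9 lower.

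Genes of proteins that bind ID proteins or set their stability were called lower more often than higher, as were all genes. Of 20 listed 12 were tested, and 1 was called higher, 7 lower and 4 neither, with a median change of -0.45. The shares were 8.33% higher and 58.3% lower, beside 16.5% and 34.4% of all genes tested. ETS1, an ETS factor, fell from 12.1 to 3.81 (log2 change -1.43, limma adjusted p = 0.00142). CAV1 (caveolin-1) fell from 98.5 to 41.9 (-1.20, limma adjusted p = 0.000752), and ELK3, a serum response partner of the ETS family, from 13.5 to 5.92 (-1.02). COPS5, a signalosome subunit, rose by 0.23. COPS5 was not called without 24 h replicate 6.

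**Figure D5:**
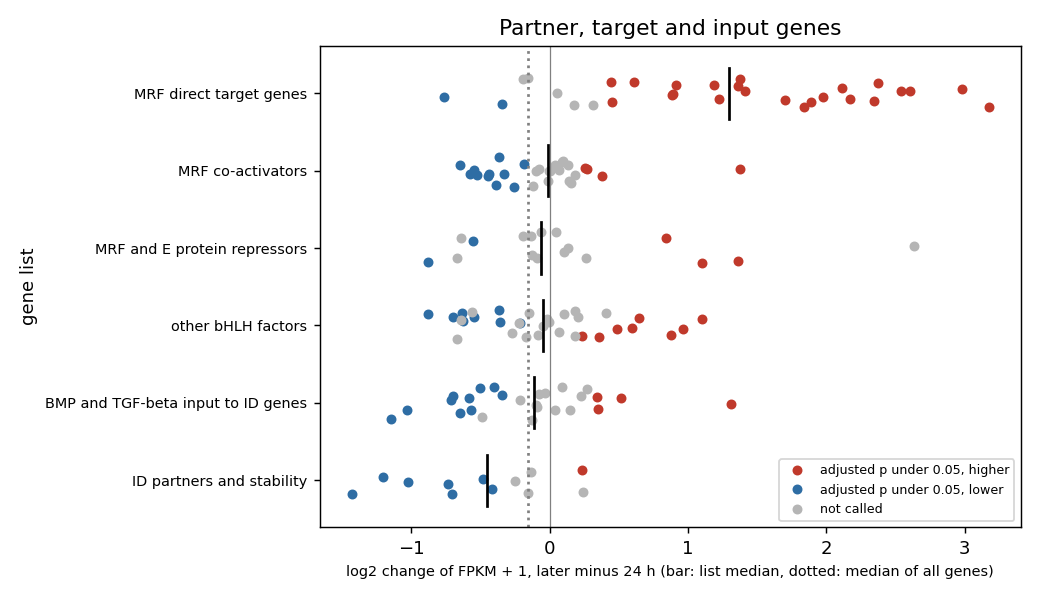
log2 change of FPKM + 1, later minus 24 h (x axis), of the tested genes of 6 lists (y axis), with 1 point per gene (red called higher, blue called lower, grey not called), a black bar at each list's median and a dotted line at the median of all genes (-0.16). The targets center on 1.29, whereas the medians of the other lists lie between -0.45 and -0.01.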

How the data were processed

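RNA-seq of PSCs was analysed in 6 libraries, 3 at 24 h and 3 at the later time. The authors deposited FPKM values, with a column for each library and none pooled. Their paper names HISAT2, StringTie and HTSeq, and the submitters' processing notes name TopHat2, Cufflinks, HTSeq and Sscrofa11.1. Strandedness and the handling of shared reads are not given in the sources used here. No column of per-sample values was left out.

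Whole fragments were recovered from the steps of the deposited FPKM within each gene. The step was whole (tolerance 0.02 fragments) for 100% of the 19543 genes with 3 or more values above 0. That share is partly set by the search, which tries multipliers until the values of a gene are whole. The gene lengths that follow from the steps lay within 0.05 of a whole number for 99.1% of these genes. Where all fragment numbers of a gene have a common divisor, the recovered numbers are too small.

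Two-sided tests on log2(FPKM + 1) used lmFit and trended eBayes of limma 3.58.1 (R 4.3.3), for genes whose FPKM averaged 1 or more. Ratios were compared with exact permutation tests (Python 3.11.15, scipy 1.17.1). The fitting code was run on simulated data with independent noise and far fewer changed genes than were called here. That run does not measure the error of the calls. Alternatives were median-ratio and quantile scaling, pseudocounts of 0.1 and 0.01, no filter and an FPKM minimum of 5, eBayes without trend, a replicate block, limma voom on recovered fragments, and leaving out each library. An analysis without both replicates 6 and the list of immediate-early genes were added after the values were seen.

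The genes named are the members, up to 3 largest rises and falls past the threshold in each list, and the 3 nearest profiles of each member. The nearest profiles of TCF3 are not reported here. The members and lists were chosen with earlier results of these data known. Symbols were paired with 11804 of 25322 Ensembl identifiers, so the lists cover genes with a symbol. ID1, ID3 and MYOG were not analysed here. Positions are those of RefSeq for Sscrofa11.1 and can differ from the gene models behind the counts. The MYOD primers are those of the study's supplement.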

Additional observations from a re-analysis of the deposited data

How the results depend on the processing

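MYF6 and TCF12 kept their direction and their call in all 16 alternatives, and the count of genes called stayed between 4889 and 7407. The count of members called lower was 1 with the deposited FPKM, 2 with limma voom, 1 to 2 when each library was left out, 3 without replicate 6 of both groups (added after the values were seen) and 3 with the replicate block. The count of members called higher was 2 after median-ratio scaling. The log2 change of TCF4 (-0.08) changed sign to 0.094 after median-ratio scaling, 0.014 after quantile normalization and 0.086 without both replicates 6, and ranged from -0.135 to 0.014 when each library was left out. The log2 difference of the ratio of ID2 to E proteins, -0.01, became -0.88 when TCF12 was taken out of the sum, and ranged from -0.351 to 0.262 when each library was left out. Of these, the fits without libraries rest on fewer samples, and the cause of the other changes was not tested.

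With the replicate number as a block, MYF5 (limma adjusted p = 0.00678) and ID2 (limma adjusted p = 0.0167) were called lower, and 7034 genes were called in all. The correlations of the deviations of same-numbered libraries were 0.15, -0.02 and 0.18 for numbers 4, 5 and 6, and 2 of 3 numbers matched best with their own. The numbers were not taken as pairs because number 5 showed no correlation and the labels tie no number to an animal or culture. Pairing is not excluded by this, and whether MYF5 and ID2 were called depends on the choice. Depth limits MYF6 most, at a counting error of 9.21% to 17.2% per library. Results cover 3 libraries per group.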
